A study of Mus musculus with 6 samples.

Results

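The 10 genes followed here belong to the glutathione S-transferase (GST) family and were measured in liver after obstruction of the bile duct. They are Gsta2, Gsta3 and Gsta4 of the alpha class, Gstm1, Gstm2, Gstm3 and Gstm5 of the mu class, Gstp1 of the pi class, and Gstt1 and Gstt2 of the theta class. They were chosen by gene name, as all probe sets (each a set of oligonucleotides for 1 transcript) whose platform symbol is one of the 10, and they are 10 of the 8251 genes named on the array. They were represented by 16 probe sets, and 0 probe sets with several symbols held a member. Each array held liver RNA of 1 mouse, and the 6 animals were C57BL/6J males, wild-type, 8 to 10 weeks old. In 3 mice, numbered 1, 12 and 3 in the labels, the common bile duct had been tied and cut under methoxyflurane 1 day earlier (bile duct ligation, BDL), which blocks the flow of bile. The other 3, numbered 1, 2 and 3, had the abdomen opened without ligation (sham). Each value is from whole liver, in which fewer cells of a type and less RNA per cell cannot be told apart.

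GSTs join the tripeptide glutathione to electrophilic compounds, and the conjugates leave the cell through export pumps. Alpha class enzymes also reduce lipid hydroperoxides, mu and theta class enzymes act on epoxides and small halogenated compounds, and the pi class enzyme is abundant in male mouse liver. Many GST genes are known targets of NRF2, the transcription factor released by oxidants and electrophiles, and of the receptors CAR, PXR and AHR, which sense drugs and bile constituents.

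Promoter windows of 300 bases, 250 before and 50 after the transcription start, were taken from RefSeq on GRCm38.p6 for 8 of the 10 members, 9 windows in all because Gstm1 has 2. Gsta4 and Gstt2 were not matched. Both strands were searched for TGACNNNGC (the core of the antioxidant response element that NRF2 binds), TGANTCAGC (the site of NRF2 with its small MAF partners), TGANTCA (the AP-1 site, contained in the preceding one) and GCGTG (the core that AHR binds). The windows of Gsta2 and Gstm3, which belong to different classes and are each other's nearest member in profile over the mice, are shown beside those of Gstm5 and Gstp1, which hold the NRF2 and AP-1 letters. Capitals mark a match of any of the 4 motifs:
Gsta2, chr9:78347096-78347395, minus strand: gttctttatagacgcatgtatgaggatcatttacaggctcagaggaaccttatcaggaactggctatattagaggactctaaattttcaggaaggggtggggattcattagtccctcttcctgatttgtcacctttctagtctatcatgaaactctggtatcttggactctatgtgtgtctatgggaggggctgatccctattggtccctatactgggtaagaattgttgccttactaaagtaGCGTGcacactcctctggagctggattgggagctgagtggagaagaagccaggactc
Gstm3, chr3:107969125-107969424, minus strand: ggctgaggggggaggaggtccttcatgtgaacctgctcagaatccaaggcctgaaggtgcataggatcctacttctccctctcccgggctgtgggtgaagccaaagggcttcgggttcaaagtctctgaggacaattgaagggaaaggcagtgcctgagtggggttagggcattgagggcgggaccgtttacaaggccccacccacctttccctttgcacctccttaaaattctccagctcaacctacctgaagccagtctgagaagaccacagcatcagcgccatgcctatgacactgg
Gstm5, chr3:107895604-107895903, plus strand: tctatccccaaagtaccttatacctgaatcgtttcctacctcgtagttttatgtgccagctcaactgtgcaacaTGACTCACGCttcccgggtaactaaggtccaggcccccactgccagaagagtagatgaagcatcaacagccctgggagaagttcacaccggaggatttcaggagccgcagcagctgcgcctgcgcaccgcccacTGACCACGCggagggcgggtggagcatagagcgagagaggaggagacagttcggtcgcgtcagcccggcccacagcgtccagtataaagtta
Gstp1, chr19:4037863-4038162, minus strand: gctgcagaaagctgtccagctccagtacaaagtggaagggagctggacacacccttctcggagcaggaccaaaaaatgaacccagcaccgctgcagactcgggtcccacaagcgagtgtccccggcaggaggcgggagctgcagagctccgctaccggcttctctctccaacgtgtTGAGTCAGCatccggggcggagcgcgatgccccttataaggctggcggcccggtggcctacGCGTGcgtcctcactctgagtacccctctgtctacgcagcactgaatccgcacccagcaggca
TGACNNNGC was found in the windows of Gsta3 and Gstm5, against 12.4% of all 32851 windows of this length. The longer TGANTCAGC was found only for Gstp1 among the 8 members, as TGAGTCAGC from base 177 counted from the 5′ end of the window, against 1.19% of all windows. TGANTCA was in the windows of Gstm5 and Gstp1, against 7.81%. GCGTG was in those of Gsta2, Gstm1, Gstm5 and Gstp1, against 32.4% of all windows, and in Gsta2 it began at base 244, just before the transcription start. The Gstm3, Gstm2 and Gstt1 windows held none of the 4, which says only that these letters are not in these windows. A match is a description of the sequence and not a binding site.

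The 2% trimmed mean was 1501 on each array. Scaling before deposit would make it so, and it does not show that the arrays were alike. Their medians ran from 431 in sham replicate 3 to 627 in sham replicate 1. Pairs of arrays correlated across probe sets at 0.887 to 0.955 inside a group and 0.856 to 0.949 across groups (Pearson). Sham replicate 1 stood apart at low signals, with a 10th percentile of 135 against 33.6 to 62.2 elsewhere. The ratio of 3′ to 5′ beta-actin probe signals, which reflects how intact the RNA is, was 1.21 to 1.41 in BDL against 1.52 to 1.54 in sham mice, while that of Gapdh overlapped (0.690 to 0.741 and 0.652 to 0.813); their part in the results was not tested. The tissue label was checked on 16 hepatocyte markers, of which 15 were named on the array and tested. Summed, they gave 880346 to 1289210 in BDL against 727410 to 1142620 in sham mice. The number of arrays limits the precision.

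Among the members, Gsta4 and Gsta2 were higher in all BDL mice than in all sham mice, Gstm3 was high in 2 of 3 BDL mice, and the pi and theta class genes had differences close to 0. Signals under a floor of 152.7 were set to it before log2, and differences are BDL minus sham on that scale, tested with limma over 9542 probe sets with Benjamini-Hochberg adjustment. Of the 16 member probe sets, 15 were tested, and 0 passed an adjusted p of 0.05, as did 0 of all 9542 (0.0%). At an unadjusted p under 0.05 there were 2 of 15 (Gsta4 and Gsta2, both higher in BDL), which is 13.3% against 5.78% of all tested probe sets in either direction and 3.4% higher; 0 of 15 were lower in BDL, against 2.39%. The groups did not overlap for 3 of 15, all higher in BDL (Gsta2, Gsta4 and a Gstm1 probe set), which is 20% against 6.32% of all tested probe sets, and 0 of 15 were lower without overlap, against 4.32%. A positive difference was found for 10 of 15, against 48.8% of all. With counts this small these shares describe the members and call nothing. Over 1 probe set per gene the median difference was 0.27 for the 10 members and -0.01 for 6892 tested genes.

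**Figure D1:**
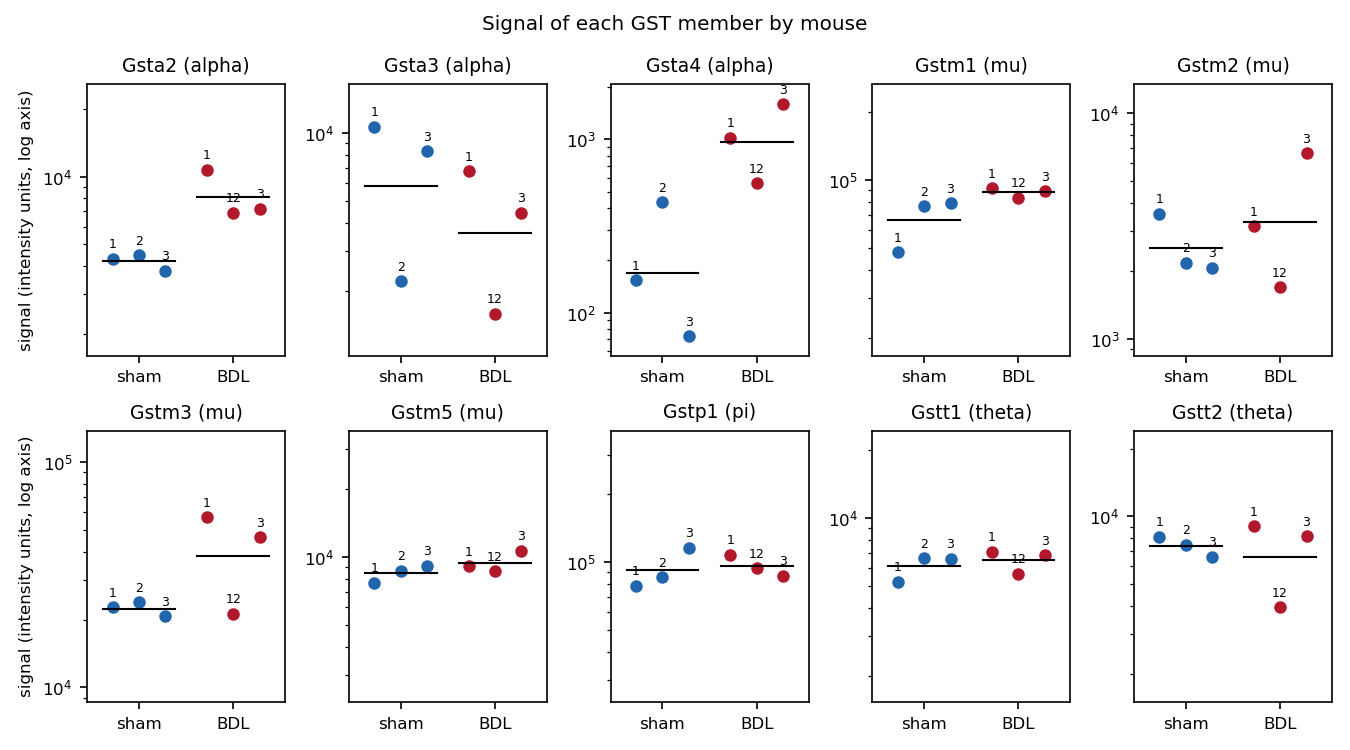
Signal of the probe set that stands for each of the 10 GST genes, on a log axis in intensity units with a separate range per panel; each point is 1 mouse with its replicate number, and the bar is the geometric mean of the 3 mice of a group. Gsta2, Gsta4 and Gstm1 have all BDL points above all sham points, and for Gstm3 the point of BDL replicate 12 lies among the sham points.

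In the alpha class, Gsta4 encodes the enzyme that conjugates 4-hydroxynonenal and other aldehydes of lipid peroxidation. Its signal on 96085_at was 1023 in BDL replicate 1, 558 in replicate 12 and 1597 in replicate 3, against 154, 435 and 73.0 for sham mice 1, 2 and 3. All BDL values were above all sham values, although BDL replicate 12 and sham replicate 2 were close, and sham replicate 3 was under the floor. The means were 1059 ± 520 and 221 ± 190 (SD, n = 3 each). The difference was 2.16 (SE 0.52), 4.46-fold, with a 95% interval of 1.96-fold to 10.2-fold (limma unadjusted p = 0.00280, adjusted p = 0.667). Because the sham signals are low, its size depends on the floor: it was 1.42 with a floor at the 40th percentile, 2.68-fold, and 2.51 with a floor at the 10th. Over the alternatives run its adjusted p was 0.330 to 0.998. Leaving out 1 mouse at a time gave 1.80 without BDL replicate 3 to 2.66 without sham replicate 2.

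Gsta2 encodes a major hepatic alpha subunit that is inducible by antioxidants. Its signal on 101872_at was 10711, 6906 and 7211 in BDL mice 1, 12 and 3 against 4322, 4481 and 3827.5 for sham mice 1, 2 and 3. The sham mice lay within 1.17-fold of each other, and the lowest BDL value was 1.54-fold the highest sham value. Means were 8276 ± 2114 in BDL and 4210.1 ± 341 in sham mice (SD, n = 3 each). The difference was 0.95 (SE 0.30), 1.93-fold with a 95% interval of 1.20-fold to 3.10-fold (limma unadjusted p = 0.0120, adjusted p = 0.832). Without BDL replicate 1, the highest, it was 0.75 with an unadjusted p of 0.0583 from limma. For Gsta2 and for Gsta4 an exact two-sided permutation test gave p = 0.1, the smallest that 3 against 3 mice allow. The neighbouring gene Gsta1, which is closely related in sequence to Gsta2, was not tested: its signals were 14.3 to 60.0 on the BDL arrays and 27.2 to 219 on the sham arrays. Whether the Gsta2 probes also read Gsta1 was not tested.

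Gsta3 encodes the alpha subunit known for conjugating aflatoxin epoxide in mice, and its mean was lower in BDL with wide scatter. Its signal on 93015_at was 6752, 1583 and 4436 in BDL mice 1, 12 and 3 against 10649, 2198 and 8318 for sham mice 1, 2 and 3. The groups overlapped, with BDL replicate 12 and sham replicate 2 both far below the other 4 mice, and the highest signal was 6.73-fold the lowest. The difference was -0.68 (SE 0.69), with a 95% interval of -2.25 to 0.89 (limma adjusted p = 0.880). It was -0.08 without BDL replicate 12, -0.24 without sham replicate 1 and -1.38 without sham replicate 2. Of the alpha members, Gsta2 and Gsta4 lie in 1 gene cluster with Gsta1 in the RefSeq annotation, and Gsta3 lies apart on another chromosome.

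The 4 mu class genes lie in 1 cluster, in the order Gstm5, Gstm7, Gstm6, Gstm3, Gstm2, Gstm1 and Gstm4 in RefSeq. Their sequences are alike, and 4 of the 10 mu probe sets carry the suffix f, which Affymetrix gives to probes shared within a gene family, so signal of one member can be read by the probes of another. Another 4 carry the suffix r, given where the probe selection rules had to be relaxed. The 4 genes had 2 to 4 probe sets each, and for 3 of them (Gstm1, Gstm2 and Gstm5) the tested probe sets had differences of both signs. All 3 tested f probe sets were positive, against 1 of 4 r probe sets. A difference of a mu gene is therefore given with each of its probe sets.

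Gstm3 had the largest mu class difference and the same sign in both probe sets. On the brighter probe set, 97681_f_at, the signal was 56765 in BDL replicate 1 and 46487 in replicate 3, but 21265 in replicate 12, and the sham mice were at 22684, 23859 and 20757. BDL replicate 12 thus lay within the sham range, and the other 2 BDL mice were above it. The other probe set, 97682_r_at, gave 25619.8, 4189.5 and 19335 in BDL mice 1, 12 and 3 against 8907, 7916 and 3346 for sham mice 1, 2 and 3, the same order of the BDL mice. Means on the first were 41506 ± 18267 in BDL and 22433 ± 1566 in sham mice (SD, n = 3 each). The differences were 0.77 (SE 0.40), 1.71-fold, and 1.05 (SE 0.68), 2.06-fold (limma adjusted p = 0.832 and 0.834). Without BDL replicate 12 they were 1.20 (SE 0.32) and 1.85 (SE 0.49), with unadjusted p of 0.00638 and 0.00600 and an adjusted p of 0.761 for each from limma. Over the alternatives run the adjusted p of the first was 0.563 to 1.00. BDL replicate 12 was the lowest BDL mouse on both probe sets, so leaving it out had to raise both differences. Without BDL replicate 1 they were 0.49 and 0.54, with unadjusted p of 0.284 and 0.466 from limma. Without BDL replicate 3 they were 0.63 and 0.75, with unadjusted p of 0.218 and 0.363 from limma.

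Gstm1 encodes an abundant hepatic mu subunit. The probe set 93543_f_at gave 91897, 83548 and 89401 in BDL mice 1, 12 and 3 against 47819.7, 76508.5 and 78949.8 for sham mice 1, 2 and 3. The groups did not overlap, but sham replicates 2 and 3 were close to BDL replicate 12 and sham replicate 1 lay far below. The difference was 0.42 (SE 0.31), 1.33-fold with a 95% interval of 0.821-fold to 2.17-fold (limma adjusted p = 0.846), and it was 0.18 without sham replicate 1. The second probe set, 161633_r_at, had overlapping groups and a difference of -0.20 (SE 0.51).

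Gstm2, another cytosolic mu subunit, had probe sets that disagreed. On 93009_at the signal was 3158, 1696 and 6652 in BDL mice 1, 12 and 3 against 3586, 2178 and 2069 for sham mice 1, 2 and 3, a difference of 0.38 (SE 0.50) that BDL replicate 3 set: without it the value was -0.13. On 161357_r_at it was 1225, 2936 and 1819 in BDL and 3735, 3347 and 1955 in sham mice, a difference of -0.63 (SE 0.41). Groups overlapped on both, and BDL replicate 12 was the lowest BDL mouse on the first and the highest on the second. Gstm5, which is best known from brain and testis, differed little. Its 3 tested probe sets ranged from -0.20 (SE 0.54) on 100631_r_at to 0.15. On 100629_at, which carries no suffix, BDL mice 1, 12 and 3 gave 732.5, 440 and 689. Sham mice 1, 2 and 3 gave 660, 544.5 and 537, and the difference was 0.07 (SE 0.31). The signal was far brighter on 100630_f_at, whose probes can be shared with other mu genes. There the signals were 9116, 8650.1 and 10659.7 in BDL mice 1, 12 and 3 against 7695, 8689 and 9165 for sham mice 1, 2 and 3. These overlapped, and the difference was 0.15 (SE 0.27), with a 95% interval of 0.721-fold to 1.71-fold. The fourth, 161722_f_at, was under the floor on all 6 arrays, at 49.9 to 134.

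**Figure D2:**
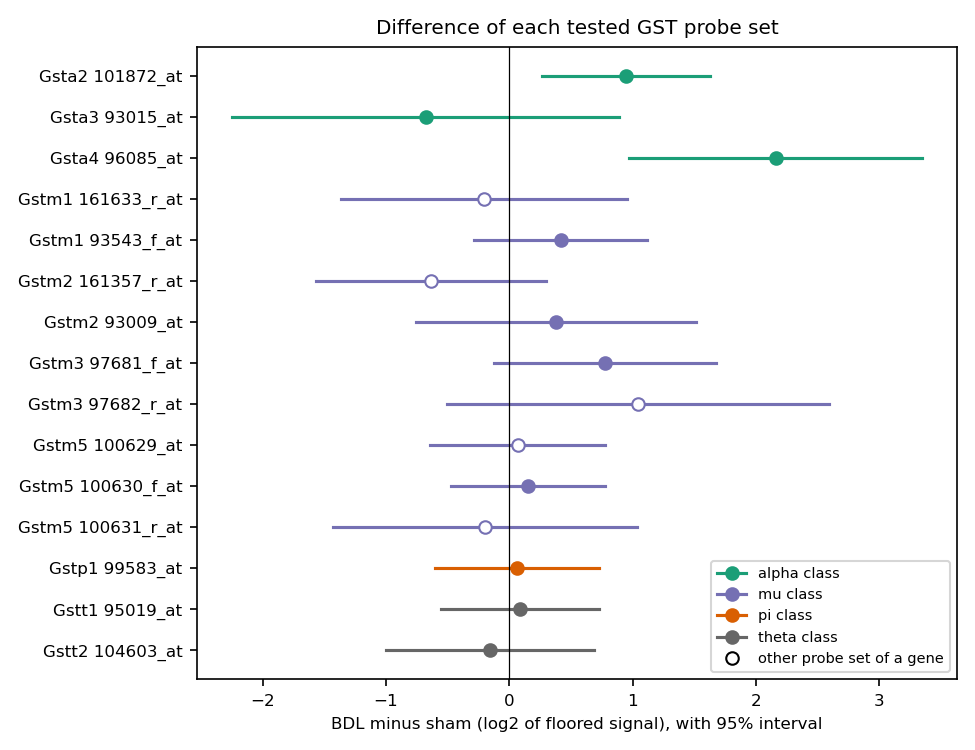
BDL minus sham difference on the log2 scale (points) with its 95% limma interval (lines) for the 15 tested GST probe sets, coloured by class; filled points are the probe sets with the highest mean signal of each gene. Only the intervals of Gsta2 and Gsta4 lie wholly above 0, and probe sets of Gstm1, Gstm2 and Gstm5 fall on both sides of it.

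Gstp1, the pi class gene, had similar signals in both groups. On 99583_at they were 107734, 94125 and 87204 in BDL mice 1, 12 and 3 against 78510.2, 85573 and 115976 for sham mice 1, 2 and 3. The sham mice spanned the whole BDL range, with means of 96355 ± 10445 in BDL and 93353 ± 19908 in sham mice (SD, n = 3 each). The difference was 0.06 (SE 0.29), with a 95% interval of 0.657-fold to 1.66-fold (limma adjusted p = 0.979), and it turned to -0.09 after quantile normalization. The interval leaves room for a modest difference either way. No probe set carried its near-identical neighbour Gstp2 as its only symbol, and whether the Gstp1 probes read both was not tested.

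In the theta class, Gstt1, which acts on small halogenated molecules, gave on 95019_at 7080, 5659 and 6835 in BDL mice 1, 12 and 3 against 5216, 6626 and 6595 for sham mice 1, 2 and 3. The groups overlapped throughout, and the 6 mice lay within 1.36-fold of each other. The difference was 0.09 (SE 0.28), with a 95% interval of 0.681-fold to 1.66-fold, and it was -0.03 without sham replicate 1. Gstt2, the second theta enzyme, gave on 104603_at 9037, 3962 and 8159.8 in BDL mice 1, 12 and 3 against 8133, 7484 and 6624 for sham mice 1, 2 and 3. BDL replicate 12 was below all other mice while the other 2 BDL mice were above all sham mice, replicate 3 only just. The difference was therefore -0.15 (SE 0.37) over all mice and 0.22 without BDL replicate 12 (limma adjusted p = 0.954 over all mice).

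Side by side, the median difference was 0.95 over the 3 alpha genes, 0.40 over the 4 mu genes, 0.06 for the 1 pi gene and -0.03 over the 2 theta genes. With quantile normalization these were 0.92, 0.30, -0.09 and -0.05, so the sign of the pi class depended on the scaling. Without BDL replicate 12 the theta median was 0.20. Over all 9 tested mu probe sets the median was 0.15. The alpha genes had both signs, from -0.68 to 2.16. The mu genes lay between 0.15 and 0.77 by their brightest probe sets, but the 9 tested mu probe sets ran from -0.63 to 1.05 and 3 of them were negative. Gstm2 was at -0.13 as the mean of its probe sets. The classes share the same 6 arrays and hold 1 to 4 genes, and whether they differ from each other was not tested.

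BDL replicate 12 had the lowest signal of the 3 BDL mice in 9 of the 10 member genes, all but Gstp1, by 1 probe set per gene. Over the 15 tested member probe sets it was the lowest of the 3 in 11 (73.3%), against 35.7% of all tested probe sets, and on 161357_r_at of Gstm2 and 100631_r_at of Gstm5 it was the highest. It was the lowest of all 6 mice in 4 of the 15 (26.7%), against 15.4% of all tested probe sets. With each member set to its own mean, the average over the 10 members was 0.47, -0.31 and 0.46 in BDL mice 1, 12 and 3 against -0.21, -0.22 and -0.19 for sham mice 1, 2 and 3. The 3 sham mice were thus close together in the family average and the BDL mice were not. In such an average, deviations of opposite sign cancel. For single members sham mice could lie far apart, with 1.22, -1.06 and 0.86 for Gsta3 and -1.57, -0.08 and -1.59 for Gsta4. The pattern of BDL replicate 12 was noticed in the values and was not tested.

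**Figure D3:**
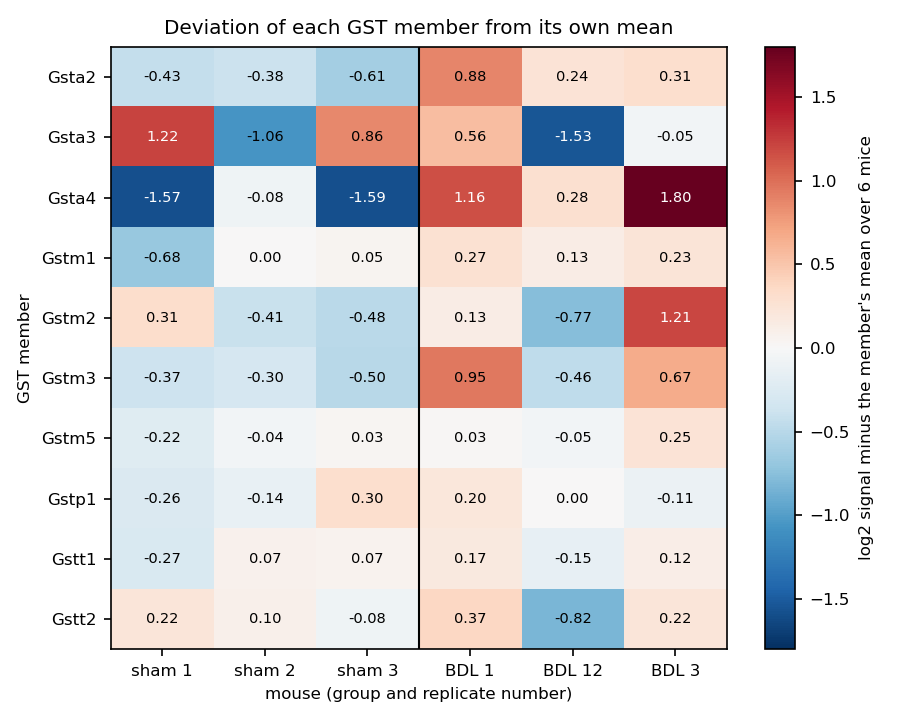
Log2 signal of each GST member (rows) in each mouse (columns) minus that member's mean over the 6 mice, with the value printed in each cell; red is above and blue below the mean. BDL replicates 1 and 3 are mostly above the mean, while BDL replicate 12 reaches -1.53 for Gsta3, -0.82 for Gstt2 and -0.77 for Gstm2.

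Profiles over the 6 mice were compared by the root mean square difference of centred log2 signals, where 0 is identical. Among members, Gsta2 and Gstm3 were each nearest to the other (0.33), and Gstm5 and Gstt1, both nearly flat, were nearest to each other (0.11). Gsta4 was nearest to Gstm3 but far from it (0.87). Over 8489 other named probe sets Gsta4 was nearest to Krt18, a keratin of liver epithelial cells (0.38), then Klf6 (0.44), Wfs1 (0.48), Ube2v2 (0.49) and Anxa5 (0.49). Gstm1 was nearest to Tmem70 (0.04), Agap3 (0.07), Tcea1 (0.09), Usp19 (0.10) and Actr3 (0.10). With 6 mice and so many probe sets some near profiles are found for any gene, so these are descriptions.

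Genes around the GSTs in the glutathione pathway were read from lists, of which 0 members passed an adjusted p of 0.05. Of all tested probe sets, 48.8% had a positive difference, and the positive counts of every list are read beside that share. Of other glutathione transferases, 7 of 16 were tested, 4 had a positive difference and the median was 0.00. Gstm6, in the same mu cluster, gave 1923, 1640.1 and 1479 in BDL and 1183, 1249 and 1112 in sham mice. The groups were apart, with a difference of 0.50 (SE 0.27; limma adjusted p = 0.832). Gstk1, the mitochondrial and peroxisomal kappa enzyme, differed by -0.57 (SE 0.34), and Gstz1, which works in tyrosine breakdown, by -0.26 (SE 0.32), both with overlapping groups. Microsomal Mgst1 and Mgst3 differed by 0.13 and 0.00.

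For glutathione synthesis, recycling and use, 19 of 28 listed genes were tested, 11 were positive, 0 were at an unadjusted p under 0.05 in either direction by limma, and the median was 0.11. The 3 with the smallest p were Hagh (-0.77, SE 0.36), a glyoxalase, Anpep (-0.75, SE 0.40), an aminopeptidase, and Slc3a2 (0.73, SE 0.50), a chain of the cystine importer. Of the export pumps for conjugates 5 of 8 were tested, with differences from -0.26 for Abcc2, the canalicular pump, to 0.02 for Abcc6; 2 were positive and the median was -0.13. Abcc3, the basolateral pump, differed by -0.17 (SE 0.30).

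Among regulators of GST genes, 17 of 19 were tested, 7 were positive and the median was -0.11. By limma's unadjusted p under 0.05, 0 regulators were higher, against 3.4% of all tested probe sets, and 1 was lower, against 2.39%. This was Cebpa, a hepatocyte transcription factor, at -1.02 (SE 0.32; limma adjusted p = 0.832). Mafk, a small MAF partner of NRF2, differed by 0.72 (SE 0.36) with the groups apart, and Fos, a part of AP-1, by 0.74 (SE 0.43) with overlap. Nfe2l2, which encodes NRF2 and was picked here after its values were seen, gave 6169, 1273 and 4654 in BDL mice 1, 12 and 3 against 2947, 764 and 1793 for sham mice 1, 2 and 3. Its groups overlapped through BDL replicate 12, and the difference was 1.06 (SE 0.67).

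NRF2 targets outside the GST genes had 19 of 25 tested, 14 positive, against 48.8% of all tested probe sets, and a median of 0.31. By limma 2 had an unadjusted p under 0.05 with BDL higher, against 3.4% of all tested probe sets, and 0 with BDL lower, against 2.39%. These were Cbr3, a carbonyl reductase, at 1.41 (SE 0.40), and Hmox1, heme oxygenase 1, at 1.25 (SE 0.48), while Me1, malic enzyme, differed by -0.46 (SE 0.27). In 16 of these 19 genes (84.2%) BDL replicate 12 was the lowest of the 3 BDL mice, against 35.7% of all tested probe sets. In 10 it was the lowest of all 6, against 15.4%. The average deviation of the 19 genes was 0.60, -0.51 and 0.36 in BDL mice 1, 12 and 3 against -0.08, -0.38 and 0.02 for sham mice 1, 2 and 3. Picked after their values were seen, Gclc, the catalytic subunit of glutamate-cysteine ligase and a member of the synthesis list too, gave 8740, 1963 and 6634 in the same BDL order and 3839.6 to 4289 in sham mice. Nqo1, a quinone reductase, gave 1097, 49.5 and 689 in BDL and 397 to 442 in sham mice. Its probe set carries the suffix r, and 49.5 is under the floor. For both genes, BDL replicate 12 lay below every sham mouse and the other 2 BDL mice lay above every sham mouse. The differences were 0.27 (SE 0.52) for Gclc and 0.22 (SE 0.64) for Nqo1. The groups were apart with BDL higher for 3 of the 19 genes (Hmox1, Cbr3 and Tkt), against 6.32% of all tested probe sets. By definition this places BDL replicate 12 above every sham mouse. For 1 of the 19, Me1, the groups were apart with BDL lower, against 4.32%.

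CAR and PXR targets outside the GST genes had 11 of 18 tested, 2 positive, against 48.8% of all tested probe sets, and a median of -0.17. By limma 0 of them had an unadjusted p under 0.05, against 5.78% of all. Cyp3a11, the main PXR-inducible P450, had groups apart and a difference of 0.56 (SE 0.27). Pericentral hepatocyte genes, from the zone where several GSTs are strongest, had 13 of 18 tested, 2 positive and a median of -0.36. By limma's unadjusted p under 0.05, 0 were higher, against 3.4% of all tested probe sets, and 1 was lower, against 2.39%. This was Csad, a taurine synthesis enzyme, at -1.70 (SE 0.43, limma adjusted p = 0.687). Periportal genes had 14 of 18 tested, 3 positive, 0 at an unadjusted p under 0.05 by limma, and a median of -0.19.

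**Figure D4:**
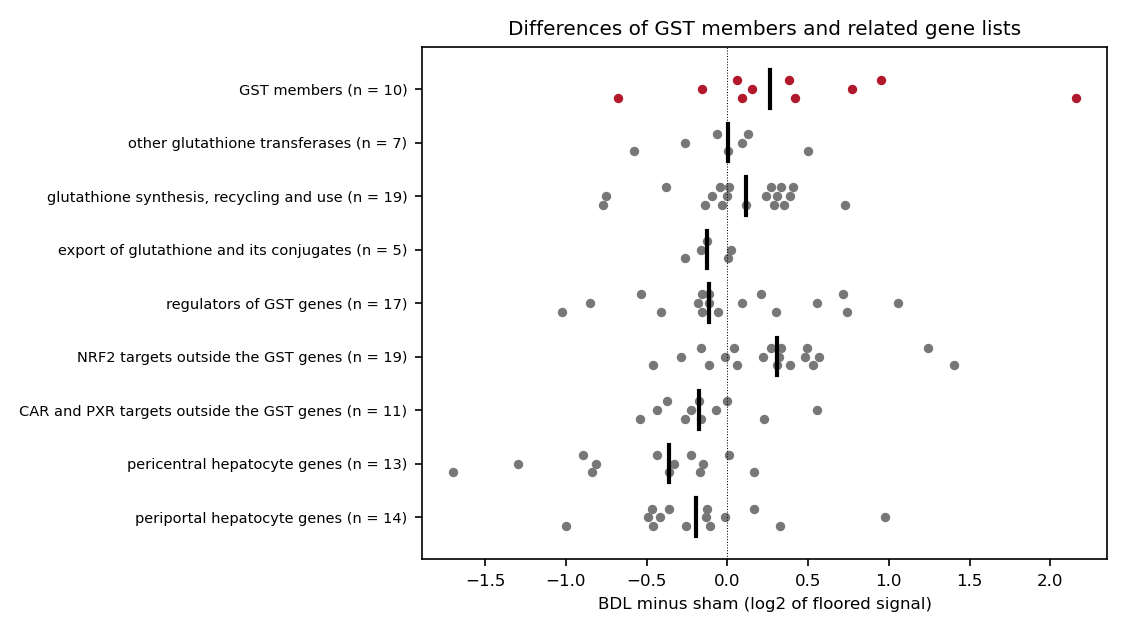
BDL minus sham differences on the log2 scale for the 10 GST members (red) and for tested genes of related lists (grey), 1 probe set per gene, with the median of each list as a vertical bar. The members' median of 0.27 and the median of 0.31 of the NRF2 targets lie to the right of 0, and the pericentral genes' median of -0.36 lies to the left.

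Markers of other liver cells were read beside these values. Of 18 macrophage and Kupffer cell markers, 14 were tested and 12 were positive, against 48.8% of all tested probe sets. Their median was 0.87. By limma's unadjusted p under 0.05, 3 of the 14 were higher, against 3.4% of all tested probe sets. Their summed signal was 21105 to 43086 in BDL against 9751 to 17464 in sham mice, and 0 of the 16 on the array were under the floor in all mice. This separation rested on Cd14, a lipopolysaccharide receptor subunit, which made up 68.9% of the sum in BDL replicate 12. Without Cd14, left out after its values were seen, the sums were 19232, 13394 and 20984 in BDL mice 1, 12 and 3 against 14996, 12896 and 8575 for sham mice 1, 2 and 3, and the groups overlapped. BDL replicate 12 was the lowest BDL mouse for 10 of the 14 (71.4%), against 35.7% of all tested probe sets. Of 16 cholangiocyte markers 8 were tested and 5 were positive, with a median of 0.42 and 1 higher at that threshold. Their summed signal was 5212 to 6750.0 in BDL against 3718 to 5850 in sham mice, and Krt7, Epcam and Cldn7 were too low to be tested, Cldn7 being under the floor in all mice. At the same threshold 2 of 13 neutrophil, 0 of 7 lymphocyte, 3 of 13 stellate cell and 2 of 10 endothelial markers were higher. The share of all tested probe sets was 3.4%. Of the 7 lymphocyte markers 1 was lower, against 2.39% of all tested probe sets. The medians of the neutrophil, lymphocyte, stellate cell and endothelial markers were -0.08, -0.27, -0.09 and 0.47. The part of these cells in the GST values was not tested.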

How the data were processed

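Liver RNA (20 µg cRNA per array) was measured on Affymetrix U74Av2 arrays. The authors worked with version 4.0 of MicroArray Suite and GeneChip software 3.1, per the series' design text. Background and scaling settings are not stated in what was read here. The deposited intensity values, linear and 1 for each probe set on each array, were kept because the arrays' 2% trimmed means lay within 5% of each other. Values already scaled to that mean would always meet this rule. Signals below 152.7, the 25th percentile over all arrays, were raised to that floor before log2, which understates differences of low signals. Of 12488 probe sets, 66 controls were left out and 9542, above the floor on at least 3 of 6 arrays, were tested with limma 3.58.1 in R 4.3.3 (lmFit and eBayes, no covariates, Benjamini-Hochberg adjustment). SE values are limma's moderated errors. The test was tested on simulated data. Gene symbols are those of the platform annotation after an update through RefSeq. For each gene the probe set brightest on average (log2) was used, and all probe sets of the 10 members are described. In each list up to 3 tested genes with the smallest p are named; others are marked, except the other glutathione transferases and export pumps, which were picked for their role. The members and lists were chosen with earlier results of these data known.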

Additional observations from a re-analysis of the deposited data

How the results depend on the processing

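No member probe set passed the adjusted threshold under any alternative run (2 other scalings, 2 other floors, an added constant, 2 other filters, a variance trend, a replicate block and each mouse left out), and over all probe sets 0 did, except 3 with no filter on dim signals. The count of member probe sets at an unadjusted p under 0.05, 2 of 15, was 1 to 4 when 1 mouse was left out. It was lowest without BDL replicate 1, where 4.36% of all tested probe sets were under 0.05. It was highest without BDL replicate 12, where 4.99% of all were, and those 4 include both probe sets of Gstm3. By the brightest probe set of each gene, the differences of Gsta2, Gsta3, Gsta4, Gstm1, Gstm3 and Gstm5 kept their sign under every alternative. Gstm1 and Gstm5 each had 1 other probe set with a negative difference. As the mean of their probe sets they were at 0.11 and 0.0054. Gstp1 turned to -0.092 after quantile normalization and ranged from -0.054 to 0.23 when 1 mouse was left out, Gstt1 from -0.026 to 0.19, Gstt2 from -0.38 to 0.22 and Gstm2 from -0.13 to 0.86. Gstm2 was also -0.13 as the mean of its probe sets. Replicate numbers 1 and 3 occur in both groups, and the deviations of same-numbered mice correlated at 0.21 and 0.25 across probe sets. BDL replicate 12 shares its number with no sham mouse; it correlated at 0.29 with sham replicate 2, the highest of the 9 pairs, and the other 6 pairs were at -0.21 to -0.04. The labels pair no mice, and no fit took 12 and 2 as a pair. With the replicate number as a block, the differences rest on the 4 mice numbered 1 and 3, and BDL replicate 12 and sham replicate 2 add nothing to them. In that fit 4 member probe sets, both of Gstm3 among them, had an unadjusted p under 0.05, against 6.82% of all tested probe sets. Gstt2 differed by 0.23, Gsta3 by -0.78 (SE 0.38) and Gsta4 by 3.06, and 0 passed the adjusted threshold.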
